A study of Rattus norvegicus with 30 samples.

Results

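Kidneys taken from Sprague-Dawley rats 34 h after 0.50 mg/kg mercury chloride (HgCl2, the high dose of the study) were compared with kidneys taken 34 h after saline at 1 ml/kg (the vehicle). Both groups held 5 animals with 1 RNA sequencing library each. These 10 libraries were chosen by their labels from the 30 of the study, which also holds a low dose of 0.25 mg/kg and kidneys taken at 10 h. Sprague-Dawley is an outbred stock, so the animals of a group also differ in genotype. The sources used here give neither the sex and age of the rats nor the route of the dose. Whole kidneys were ground to powder before RNA was isolated, so each library averages over cortex, medulla and every cell type. In such bulk RNA, fewer cells of a type and less RNA per cell cannot be told apart.

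Inorganic mercury is a classic poison of the proximal tubule, the part of the nephron that takes back most of the filtered glucose, amino acids and salt. The tubule cells take mercuric ions up bound to thiols such as cysteine and glutathione, through transporters of organic anions and amino acids. Inside the cell the ions bind protein thiols and induce metallothionein and antioxidant enzymes. Injury can go as far as necrosis of the tubule lining, followed by shedding of dead cells and regrowth of the survivors.

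The deposited files name transcripts by Ensembl rat transcript IDs and do not pair them with genes. None could be looked up either, since the reference table at hand lists 47357 genes of rat and holds Ensembl rat IDs in 0 of its lines. The lists of injury, stress, transport and cell type genes drawn up for this comparison could therefore not be matched, and the kidney label could not be checked against marker genes. Transcripts are described by their length in bases, their level in every animal and their behaviour in the other groups. No more than 2 IDs that stood higher and 2 that stood lower are given.

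The 10 libraries held 24.7 to 33.4 M (mega) estimated counts on transcripts, with 31.1 ± 2.29 M in the high dose and 28.5 ± 3.21 M in the vehicle (SD, n = 5 each). Animals are numbered 1 to 5 in each group, in the order of deposit. High dose animals 1 and 2 carry the library numbers 41 and 42, and animals 3 to 5 carry 53 to 55. The vehicle libraries are 43 to 45 and 51 and 52, so that both groups are present in both runs of numbers, 41 to 45 and 51 to 55. Before any comparison, high dose animals 3, 4 and 5 stood apart from the other 7 kidneys in many transcripts, as described below. The share of counts on genomic intervals, which are targets outside the transcripts, was 9.23% in high dose animal 4, the highest of the 30 libraries, and 5.82 to 7.66% in the other 9 libraries compared.

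Taken as groups of 5, the high dose and the vehicle differed in no transcript past the test. Of 21112 transcripts tested with edgeR's quasi-likelihood test, 0 had an adjusted p under 0.05 (0%), and 1165 had an unadjusted p under 0.05 (5.52%), of which 725 were higher after the high dose. DESeq2 called 41 of 20873 transcripts (0.196%), 30 higher and 11 lower. limma called 0 both with voom's quality weights (1943 at an unadjusted p under 0.05) and on log2 values of TPM with 1 added (1149). Of the 41 transcripts called by DESeq2, 30 had no overlap between the groups, 27 had a mean of at least 5 CPM (counts scaled to the size of the library), and 12 had whole estimated counts. Over all 21112 transcripts the shares of these 3 kinds were 1.21%, 61.1% and 39.1%. The calls and the overlap were read from the same values, so little overlap among the calls was to be expected. kallisto divides reads that match several targets, so a fractional count marks a transcript with shared reads.

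Among the 8256 transcripts with whole counts in all 30 libraries, edgeR called 3 (0.0363%), all higher in the high dose. They were 1887, 769 and 11622 bases long. The call of the 1887-base transcript was kept in 7 of 10 fits with 1 library left out, and those of the other two in 3 of 10 each. The number of calls in this class was 0 without vehicle animal 3, 4 or 5, 1 without vehicle animal 2 or high dose animal 3 or 4, and 2 or 3 in the other 4 fits. These 3 transcripts are described first.

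The 11622-base transcript, ENSRNOT00000057897, had the largest difference between the median animals among transcripts with whole counts and no overlap of the groups. Its levels after the high dose were 44.9, 35.8, 30.6, 37.4 and 25.8 CPM in animals 1 to 5. In the vehicle they were 16.1, 7.52, 6.98, 9.03 and 10.5 CPM. Every high dose animal stood above every vehicle animal, and animals 3 and 4, which stood apart elsewhere, were in the middle of their group here. The means were 34.9 ± 7.20 CPM and 10.03 ± 3.65 CPM (SD, n = 5). edgeR put the log2 fold change at 1.80 with an SE of 0.23 (adjusted p = 0.0994 over all transcripts and 0.0200 over those with whole counts). The second p ranged from 0.00238 to 0.133 with 1 library left out. Within the run of library numbers 41 to 45 the log2 fold change was 1.99, and within 51 to 55 it was 1.69.

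The 769-base transcript was the most abundant of the 3. It stood at 1535, 758, 1039, 1157 and 823 CPM after the high dose. In the vehicle the 5 animals had 517, 383, 360, 432 and 431 CPM. Animal 1 was the highest of the high dose group, and its lowest, animal 2, was still well above the highest vehicle animal. The log2 fold change was 1.32 with an SE of 0.19 (edgeR adjusted p = 0.172 over all transcripts and 0.0352 over those with whole counts). With 1 library left out, the second p ranged from 0.0265 to 0.213.

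The 1887-base transcript was close to the detection limit in the vehicle. It had 1.85, 4.49, 2.08, 1.40 and 2.12 CPM after the high dose and 0.0612 to 0.246 CPM in the vehicle. Animal 2 was the highest, and no high dose animal came near the vehicle range of 34 h. Outside the comparison, vehicle animal 2 of 10 h was at 1.41 CPM, level with high dose animal 4. Low dose animals 1, 2 and 5 of 10 h were at 2.67, 1.88 and 2.46 CPM, and low dose animal 1 of 34 h at 2.62 CPM. The remaining low dose kidneys were at 0.0797 to 0.510 CPM, and the high dose of 10 h at 0.0346 to 0.223 CPM. edgeR gave a log2 fold change of 3.70 with an SE of 0.44 (adjusted p = 0.0849 over all transcripts and 0.0125 over those with whole counts, 0.00816 to 0.0714 with 1 library left out). Without high dose animals 3 and 4 it was the only call left in this class, with an edgeR adjusted p of 0.00543.

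What the median animal showed was asked next, since the middle of 5 values is not moved by 1 or 2 extreme kidneys. The median high dose animal differed from the median vehicle animal by at least 2-fold, on the log2(CPM + 0.5) scale, in 143 transcripts that were higher (0.677% of 21112) and 99 that were lower (0.469%). The difference of medians was between -0.25 and 0.29 log2 units for the middle 80% of all transcripts. Of the 242 transcripts past 2-fold by the median, 196 had a mean under 5 CPM, and of the 12893 transcripts at or above 5 CPM only 26 were higher and 20 lower by that much. By the group means instead of the medians, 109 were higher and 65 lower, and 68 and 34 were past 2-fold by both. The median and the mean thus picked out partly different transcripts.

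Of the 242 transcripts past 2-fold by the median, 10 also had no overlap between the groups (4.13%, against 1.21% of all 21112). Both conditions were read from the same values. At 5 CPM or more there were 5 such transcripts (0.0388% of 12893), all higher in the high dose. Besides the 11622-base and 769-base transcripts, these were 1761, 3978 and 1369 bases long.

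The 1761-base transcript had the largest difference of the 5. It stood at 145, 108, 448, 201 and 162 CPM after the high dose and at 50.8, 17.1, 14.9, 26.6 and 21.8 CPM in the vehicle. Animal 3 was the highest, and the lowest, animal 2, was above all vehicle animals of 34 h. Outside the comparison, vehicle animal 2 of 10 h was at 124 CPM, above high dose animal 2, and the other vehicle kidneys of 10 h were at 21.7 to 38.6 CPM. The median animals differed by 2.87 log2 units, and the log2 fold change was 3.02 with an SE of 0.46 (edgeR adjusted p = 0.240, DESeq2 adjusted p = 1.18e-06, edgeR 0.155 to 0.745 with 1 library left out). Its estimated counts were not whole, so part of its reads was shared with other targets.

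The 1369-base transcript had 32.9, 27.6, 45.6, 27.1 and 36.2 CPM after the high dose and 7.45 to 21.1 CPM in the vehicle. All high dose animals were above the vehicle range, and animal 3 was again the highest. Its log2 fold change was 1.33 with an SE of 0.24 (edgeR adjusted p = 0.390). The 3978-base transcript had 8.30, 10.1, 10.7, 12.4 and 8.32 CPM after the high dose and 2.46 to 7.16 CPM in the vehicle, with a log2 fold change of 1.28 and an SE of 0.28 (edgeR adjusted p = 0.784). Its lowest high dose animal and its highest vehicle animal were close to each other. Outside the comparison it was at 4.69 to 8.18 CPM in the vehicle of 10 h, up to just below the lowest high dose animal. In the low dose of 10 h it was at 3.50 to 9.45 CPM, and in the high dose of 10 h at 1.85 to 6.59 CPM.

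In the other direction no transcript of 5 CPM or more combined a 2-fold lower median with separate groups. The largest such difference with whole counts was that of ENSRNOT00000074352, 2418 bases long. It stood at 11.8, 6.96, 3.62, 0.86 and 9.41 CPM after the high dose and at 12.9 to 16.8 CPM in the vehicle. The high dose animals were spread over a more than 10-fold range, from animal 1 just below the vehicle to animal 4 far below it. The median difference was -0.88 and the log2 fold change -1.12, with an SE of 0.50 (edgeR adjusted p = 0.822). Without animals 3 and 4 the log2 fold change was -0.59.

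2 further transcripts were lower in all high dose animals. A 2481-base transcript had 30.1, 24.6, 28.9, 18.7 and 23.2 CPM after the high dose and 36.1 to 40.8 CPM in the vehicle (log2 fold change -0.60 with an SE of 0.12, edgeR adjusted p = 0.513). A 3851-base transcript, abundant in all kidneys, had 1122, 976, 406, 1195 and 466 CPM after the high dose and 1268 to 1476 CPM in the vehicle. Outside the comparison it was at 746 to 1301 CPM in the vehicle of 10 h, a range that holds high dose animals 1, 2 and 4. In the low dose of 34 h it was at 466 to 1189 CPM. In the first the animals spanned a less than 2-fold range, and in the second animals 3 and 5 were far below the other 3.

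Separation of the groups as such was counted over all transcripts. How many transcripts would separate without any difference between the high dose and the vehicle was not tested, so the counts are a description. In 134 transcripts (0.635% of 21112) all 5 high dose animals were above all 5 vehicle animals, and in 122 (0.578%) all were below. At 5 CPM or more it was 90 higher (0.698% of 12893) and 88 lower (0.683%). Most of these differences were small, with a median difference of 0.30 log2 units among the 90 and -0.23 among the 88. Leaving out 1 library lets more transcripts separate: the total of 256 became 349 without vehicle animal 4, 355 without vehicle animal 3, 394 to 556 without any other single animal but high dose animal 5, and 744 without that animal. Without high dose animals 3 and 4 together it was 890.

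A level of 2-fold outside the vehicle range in a single animal was far more frequent than the same in several. Transcripts in which at least 1 high dose animal was over 2-fold above all 5 vehicle animals numbered 626 (2.97%), and those with at least 1 over 2-fold below numbered 916 (4.34%). Just 1 animal was outside in 93.3% of the 626 and 95.3% of the 916. The single animal above was animal 3 in 339 transcripts and animal 5 in 148, and the single animal below was animal 4 in 561 and animal 3 in 242. A majority of at least 3 animals was outside in 12 transcripts above (0.0568%) and 9 below (0.0426%).

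**Figure D1:**
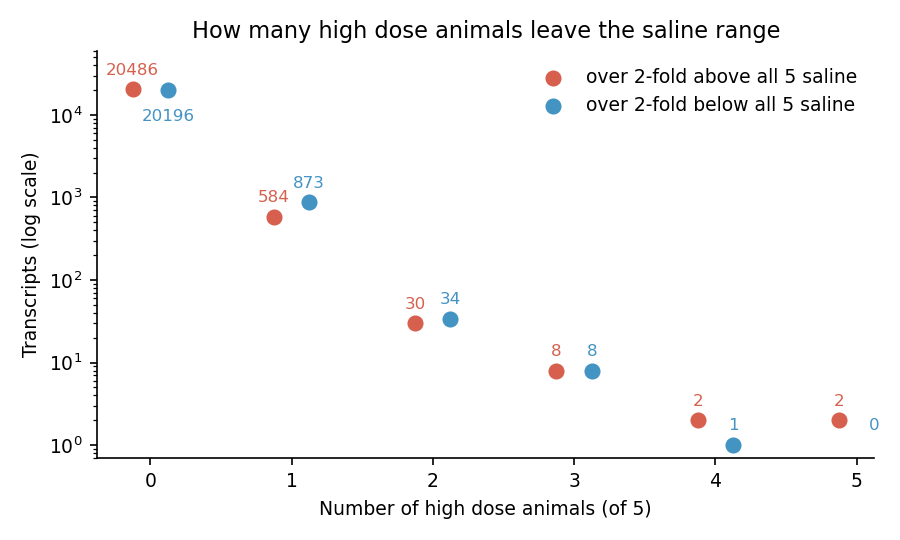
Number of transcripts (vertical, log scale) by how many of the 5 high dose animals (horizontal) lay over 2-fold above (red) or below (blue) all 5 saline (vehicle) animals at 34 h, on the log2(CPM + 0.5) scale. The counts drop from 584 and 873 transcripts with 1 animal outside to 2 and 0 with all 5, and a value of 0 is written without a point.

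The 2 transcripts with all 5 animals over 2-fold above the vehicle range were the 1761-base and the 1887-base transcripts. A 1924-base transcript was above in 4 of 5, with 198, 109, 78.8, 86.1 and 6.45 CPM after the high dose and 4.62 to 10.8 CPM in the vehicle. Animals 1 to 4 were far above all vehicle animals, and animal 5 was inside their range. The median animal stood 16.0-fold above that of the vehicle, and the log2 fold change was 3.85 with an SE of 0.69 (edgeR adjusted p = 0.390, and 0.0107 without animal 5). Of the 12 transcripts above in a majority, 5 had a mean of at least 5 CPM, and of the 9 below 1 had.

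Some transcripts were present in part of the animals and listed at or near 0 in the rest. A 348-base transcript had 0.0595, 18.9, 25.8, 12.8 and 0 CPM after the high dose and no more than 0.176 CPM in the vehicle. Animals 2, 3 and 4 held it and animals 1 and 5 did not, so the median animal put it 4.51 log2 units higher. The same transcript was on or off in the other groups as well: it stood at 21.6 and 23.7 CPM in vehicle animals 2 and 4 of 10 h and at 0.18 CPM or less in vehicle animals 1 and 5 of 10 h. A 5531-base transcript went the other way, at 0.21, 0.04, 13.6, 0.03 and 2.31 CPM after the high dose against 6.19 to 23.9 CPM in the vehicle. Both had fractional counts, and division of shared reads between targets was not tested as a part of such values.

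**Figure D2:**
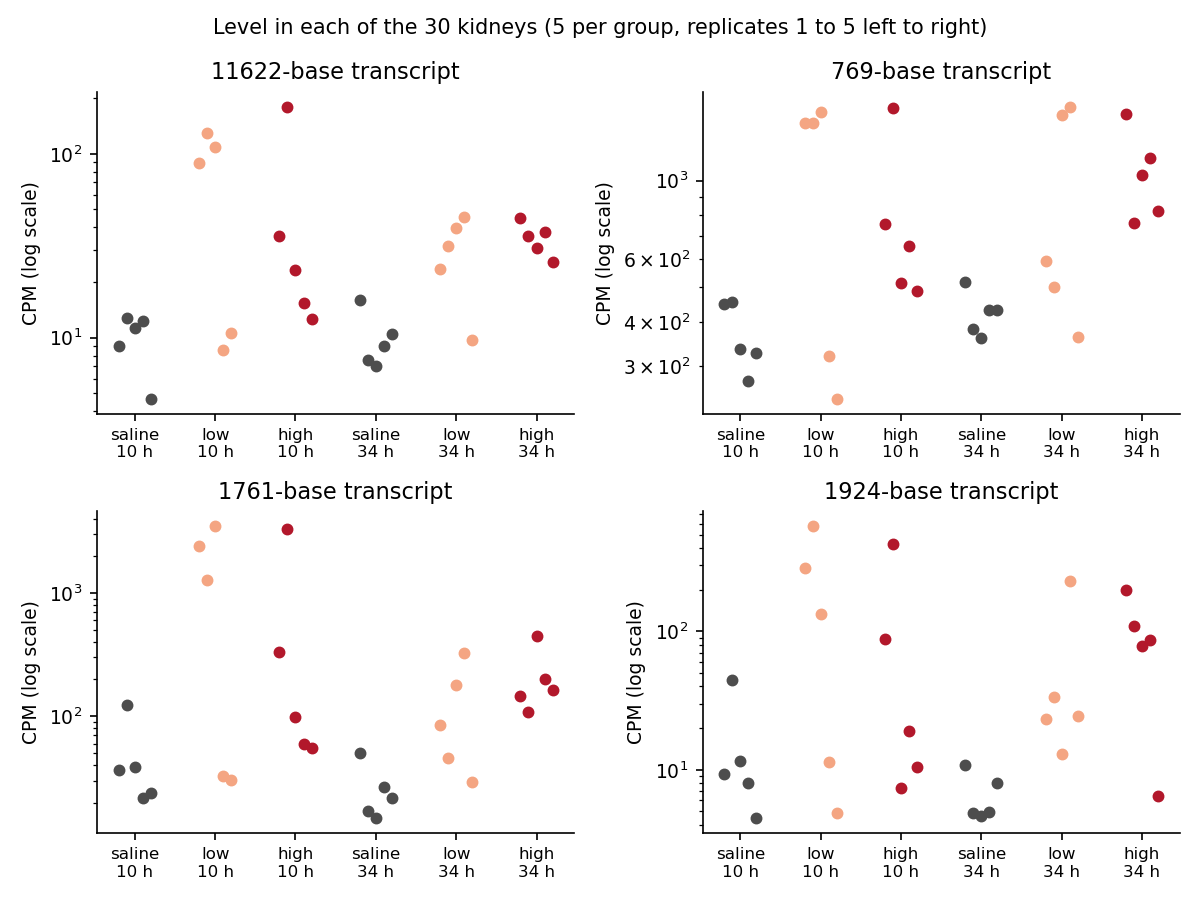
Level in CPM (log scale) of 4 transcripts in all 30 kidneys, 5 per group, with saline in grey, the low dose in orange and the high dose in red, replicates 1 to 5 from left to right. At 34 h the high dose points of the 11622-base, 769-base and 1761-base transcripts lie above all saline points, while animal 5 lies among them for the 1924-base transcript.

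The 4 transcripts plotted also stood high in part of the treated kidneys of 10 h and of the low dose kidneys of 34 h, in libraries that are outside the comparison. The 11622-base transcript was at 89.6, 130, 109, 8.60 and 10.6 CPM in low dose animals 1 to 5 at 10 h. In the vehicle of 10 h it was at 4.65 to 12.8 CPM. The first 3 low dose animals were above every kidney of the high dose at 34 h, and the other 2 were inside the vehicle range. After the high dose at 10 h, animal 2 was at 180.5 CPM and the other 4 at 12.6 to 35.8 CPM. The plot of 4 such transcripts shows low dose animals 1 to 3 and high dose animal 2 of 10 h above all vehicle animals in each panel. In the low dose of 34 h, the 11622-base transcript was at 23.8, 31.5, 39.7, 45.5 and 9.70 CPM in animals 1 to 5. The 769-base transcript was there at 593, 502, 1529, 1614 and 362 CPM. The 1761-base transcript was at 85.5, 45.9, 178, 328 and 29.1 CPM, and the 1924-base at 23.4, 33.6, 13.0, 232 and 24.5 CPM. Low dose animals 3 and 4 of 34 h thus reached the levels of the high dose of 34 h in the first 3.

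The high dose group was also the wider one. For each transcript the SD of log2(CPM + 0.5) was taken over the 5 animals of a group. Its median over transcripts was 0.266 in the high dose (quartiles 0.168 and 0.42) and 0.183 in the vehicle (0.112 and 0.300). The SD was larger in the high dose for 14906 transcripts (70.6%), and more than 2-fold larger for 6443 against 1175 the other way. Transcripts of one library are not independent, so these shares describe 10 kidneys and carry no error of their own.

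The excess spread was found at all levels and was largest among abundant transcripts, where counting error is least. At 50 CPM or more the median SD was 0.196 in the high dose and 0.105 in the vehicle, with the high dose larger in 85.4% of 3736 transcripts. Between 5 and 50 CPM it was 0.221 and 0.149 (72.4% of 9157), and under 5 CPM 0.359 and 0.286 (61.9% of 8219). The 4 other groups of the study had median SDs of 0.163 (low dose, 34 h), 0.175 (vehicle, 10 h), 0.197 (low dose, 10 h) and 0.232 (high dose, 10 h). The high dose at 34 h was thus the widest of the 6 groups by this measure.

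The excess depended on animals 3 and 4. Without animal 3 the median SD of the high dose was 0.224, and without animal 4 it was 0.219. Without both it was 0.165 over 3 animals, against 0.183 over 5 in the vehicle. The SD was then larger in the high dose in 45.6% of transcripts. Animals 3 and 4 lay farthest from the other groups, so a lower SD without them was to be expected. An SD over 3 animals also tends to be smaller than an SD over 5. These values therefore do not show a spread below that of the vehicle. Leaving out animal 1, 2 or 5 gave 0.265 to 0.278.

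A test of the spread in each transcript called few. limma on the absolute deviations from the group mean called 16 of 21112 transcripts (0.0758%), 9 with a wider high dose and 7 with a wider vehicle, and 2157 had an unadjusted p under 0.05. With deviations from the median, with squared deviations, with whole counts alone or without animals 3 and 4 it called 0. Of 5 deviations from a median, 1 is 0 by construction. With these, just 191 transcripts had an unadjusted p under 0.05, so a count of 0 from that version says little. The count was 67, 56, 26, 40 and 38 without high dose animals 1 to 5 in turn, and 40, 28, 23, 21 and 30 without vehicle animals 1 to 5. It thus moved by over 1.5 times in 8 of these 10 fits. The direction followed the group that was thinned. Without high dose animals 1 to 5 in turn, 57, 43, 21, 31 and 30 of the calls were wider in the high dose. Without vehicle animals 1 to 5 in turn, 11, 7, 9, 6 and 10 were, so that most were wider in the vehicle.

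3 of the 9 transcripts that the test called wider in the high dose are given first. Animals 1 and 2 were near the vehicle in each of these 3, which did not hold for all 9. A 675-base transcript had 24.1, 22.3, 9.26, 8.89 and 22.2 CPM after the high dose and 23.8 to 27.3 CPM in the vehicle, with animals 3 and 4 low. A 2725-base transcript, the one of the 9 with whole counts, had 8.96, 8.49, 48.6, 11.1 and 42.3 CPM against 9.21 to 12.2 CPM, with animals 3 and 5 high. A 1129-base transcript had 6.79, 6.66, 0, 6.02 and 0 CPM against 6.02 to 7.96 CPM, with animals 3 and 5 listed at 0. The 348-base transcript described above was also called, with animal 2 at 18.9 CPM and the vehicle at no more than 0.176 CPM. The remaining calls of the 9 had mean levels of 0.0704 to 1.60 CPM. Of these, a 1132-base transcript was at 6.34 and 7.16 CPM in animals 3 and 5 and at 0.223 to 0.470 CPM in the other libraries compared. A 2135-base transcript was at 1.10 and 1.54 CPM in animals 3 and 5 and at no more than 0.0612 CPM in the others. The rest were near the detection limit in every library. Among them, animal 1 had 0.298 CPM of a 3222-base and 0.446 CPM of a 1917-base transcript, both at 0 in the vehicle.

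How far each kidney lay from the rest was measured against the median profile of the 20 libraries of the 4 other groups, to which neither group contributed. The root mean squared log2 difference over transcripts was 0.332, 0.360, 0.557, 0.591 and 0.434 for high dose animals 1 to 5. The vehicle animals were at 0.349, 0.367, 0.381, 0.416 and 0.381. Animals 1 and 2 lay as close as the vehicle, and animals 3, 4 and 5 lay beyond all 5 vehicle animals. The mean difference of 0.0763 did not pass an exact permutation test (two-sided p = 0.254, the smallest possible being 0.00794). Without animals 3 and 4, which had the largest distances, the difference was -0.00295 (exact permutation p = 0.893). A smaller difference was fixed in advance by that choice.

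Within the run of library numbers 41 to 45, which holds high dose animals 1 and 2 and 3 vehicle animals, the difference was -0.0191. Within 51 to 55, which holds animals 3 to 5 and 2 vehicle animals, it was 0.129. The exact permutation p was 0.400 in the first run and 0.200 in the second, each run being too small to reach 0.05. The 3 high dose kidneys that stood apart all belong to the second run. The 2 vehicle libraries of that run were at 0.416 and 0.381, and the 3 of the first run at 0.349 to 0.381. For these 3 kidneys, the animal and the run of library numbers cannot be told apart.

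Over all transcripts, the kidneys that stood apart did not resemble each other. Single transcripts could still move alike, as in those described above with animals 3 and 5 both high or both listed at 0, or animals 3 and 4 both low. Between pairs of libraries the root mean squared log2 difference was 0.443 to 0.563 within the vehicle and 0.441 to 0.768 within the high dose. Animals 1 and 2 formed the closest high dose pair (0.441), and animals 3 and 4 the most distant (0.768). Animal 3 was 0.640 to 0.669 and animal 4 0.630 to 0.699 from the vehicle animals, so each was closer to every vehicle kidney than to the other. limma's quality weights, which rise with the fit of a library to its group, were 2.19, 1.28, 0.314, 0.265 and 0.875 for high dose animals 1 to 5 and 1.07 to 1.66 for the vehicle.

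**Figure D3:**
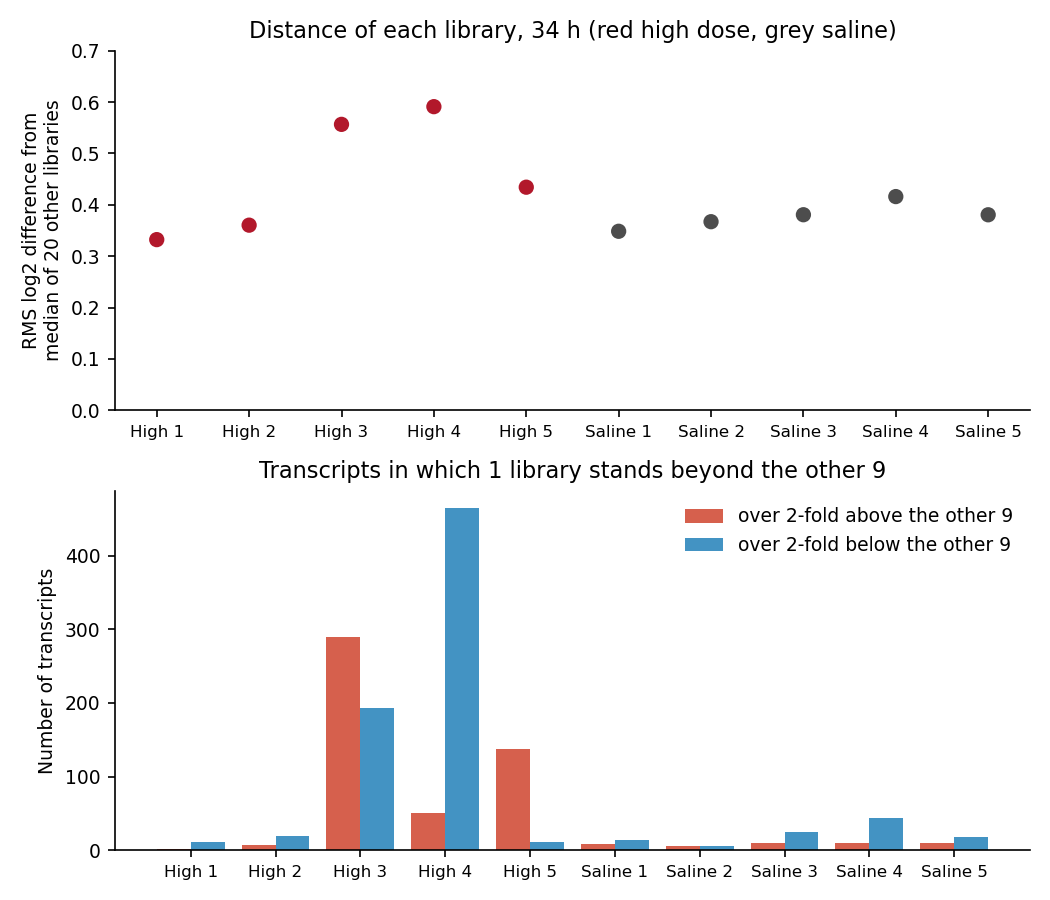
Top, root mean squared log2 difference of each of the 10 libraries of 34 h from the median of the 20 libraries of other groups (red high dose, grey saline), where high dose animals 3, 4 and 5 lie at 0.557, 0.591 and 0.434 and the saline animals at 0.349 to 0.416. Bottom, number of transcripts in which a library was over 2-fold above (red) or below (blue) all 9 others, where animal 3 has 290 and 193, animal 4 has 50 and 465, and animal 5 has 138 and 11.

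Each of the 3 kidneys had its own set of transcripts in which it was over 2-fold beyond all 9 other libraries compared. Animal 3 was above in 290 (1.37%) and below in 193 (0.914%), animal 4 above in 50 (0.237%) and below in 465 (2.20%), and animal 5 above in 138 (0.654%) and below in 11 (0.0521%). Animal 1 was above in 2 (0.00947%) and below in 11 (0.0521%), and animal 2 above in 7 (0.0332%) and below in 19 (0.09%). The vehicle animals were above in 5 to 10 and below in 5 to 44. By this rule no transcript can belong to more than 1 animal in the same direction, so the sets do not tell whether the animals resemble each other. These sets were picked by the values of the animal itself, so its own levels in them are a description.

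Animal 3 had many such transcripts on both sides. Among transcripts of at least 5 CPM with whole counts, the one furthest above the other 9 libraries was ENSRNOT00000018776, 889 bases long, at 5.30, 3.40, 44.7, 5.0 and 5.07 CPM after the high dose and at 4.27 to 5.55 CPM in the vehicle. The other 4 high dose animals were in or near the vehicle range. The log2 fold change of the group was 1.36 with an SE of 0.68 (edgeR adjusted p = 0.822) and turned to -0.07 without animal 3, while the median difference was 0.05. Some transcripts with fractional counts were further above: a 3914-base transcript was at 426 CPM in animal 3 and at no more than 4.37 CPM in the other 9 libraries, and a 993-base transcript was at 382 CPM against no more than 7.77 CPM.

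The transcripts below in animal 3 were well expressed. Their median level over all libraries compared, animal 3 included, was 35.0 CPM, against 9.90 CPM over all transcripts. A 2505-base transcript with whole counts stood at 74.6, 94.8, 2.89, 104 and 92.6 CPM after the high dose and at 68.3 to 116 CPM in the vehicle. A 3232-base transcript was at 8.48 CPM in animal 3 and at 140 to 238 CPM in the other 9. Summed over the 193 transcripts, animal 3 had 9975 CPM and the other 9 libraries 33366 to 43371 CPM.

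A few abundant transcripts of animal 3 were also high in kidneys of 10 h. Summed over the 290 transcripts, its level was 14021 CPM, and the other 9 libraries had 2484 to 3058 CPM. Of the 20 libraries outside the comparison, high dose animal 2 of 10 h had 20210 CPM, and low dose animals 1, 2 and 3 of 10 h had 5895, 4472 and 8215 CPM. The remaining 25 libraries of the 30 were all between 2363 and 3088 CPM. These sums rest on few members: the number of the 290 transcripts at least 2-fold above the median of the 30 libraries was 47 in high dose animal 2 and 10, 15 and 19 in low dose animals 1, 2 and 3 of 10 h, against 0 to 10 in the remaining 25. The median transcript of the set was 0.01 to 0.16 log2 units above its median over the 30 libraries in those 4 kidneys, inside the range of the remaining 25 (-0.13 to 0.16), and 1.79 above in animal 3. The 193 transcripts were, in sum, lowest in animal 3, followed by high dose animal 2 of 10 h (27739 CPM) and low dose animal 3 of 10 h (27902 CPM), and the remaining 27 libraries had 32222 to 47199 CPM. At least 2-fold below the median of the 30 were 19 of the 193 in high dose animal 2 and 18 in low dose animal 3 of 10 h, and 0 to 10 in the remaining 27.

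Animal 4 was distinct mainly by low levels. ENSRNOT00000061139, 4104 bases long and with whole counts, stood at 132, 147, 131, 20.5 and 141 CPM after the high dose and at 132 to 153 CPM in the vehicle. The other 4 high dose animals were at the vehicle level, and the log2 fold change of the group was -0.32 with an SE of 0.39 (edgeR adjusted p = 0.897), or -0.05 without animal 4. In the 20 libraries of other groups it was at 132 to 166 CPM. A 7543-base transcript was listed at 0 CPM in animal 4 and stood at 6.25 to 15.1 CPM in the other 9.

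The 465 transcripts below in animal 4 were, as a set, low in no other kidney. Their sum was 3769 CPM in animal 4 and 11524 to 14097 CPM in the other 29 libraries of the study, a narrow range. In 364 of the 465, animal 4 was the lowest of all 30 libraries by over 2-fold, and in the others some kidney outside the comparison came closer. In each of the other 29 libraries 1 to 14 of the 465 were at least 2-fold below the median of the 30. The transcripts were somewhat longer than others, with a median of 2573 bases against 2095 over all transcripts, and 31.6% had whole counts against 39.1%. Between the longest and the shortest of 4 length classes of about equal size, the median log2 difference of animal 4 from the vehicle differed by 0.14, against 0.06 in animal 3, 0.15 in animal 2 and -0.11 to 0.10 among vehicle animals.

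The 50 transcripts above in animal 4 were short, with a median length of 255.5 bases, and 10.0% had whole counts. Their sum was 10152 CPM in animal 4, followed by 4769 CPM in vehicle animal 4 of 10 h and 2614 CPM in vehicle animal 3 of 34 h, and the remaining 27 libraries had 724 to 1610 CPM. The 10 most abundant members made up 90.8% of the sum in animal 4. By members at least 2-fold above the median of the 30 libraries, vehicle animal 4 of 10 h came next with 28 of 50, then high dose animal 2 of 10 h with 17 and vehicle animal 3 of 34 h with 13. The 3 libraries with the highest sums had the highest shares of counts on genomic intervals, 9.23%, 8.86% and 7.66%, and the part of this share in the result was not tested. A 1140-base transcript of this set was at 1785 CPM in animal 4 and at no more than 52.8 CPM in the other 9, and stood at 322 CPM in vehicle animal 4 of 10 h. A pair of 153-base transcripts had identical estimated counts in every library, with 86.1 CPM each in animal 4 and at most 2.92 CPM in the other 9 libraries compared, so their reads cannot be told apart.

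Animal 5 was distinct mainly by high levels, and often by larger distances than animal 3: 91 of its 138 transcripts were over 4-fold above the other 9, against 42 of 290. A 2069-base transcript with whole counts stood at 3.99, 8.68, 1.74, 5.76 and 1080.5 CPM after the high dose and at 4.81 to 49.5 CPM in the vehicle. The other 4 high dose animals were inside or below the vehicle range, and the median difference was -0.40. Most of the set was scarce, with a median level of 1.12 CPM over the 10 libraries, animal 5 included.

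The same transcripts stood higher still in a kidney that had received saline. The 138 transcripts summed to 3790 CPM in animal 5, to 19896 CPM in vehicle animal 2 of 10 h and to 2832 CPM in low dose animal 4 of 34 h. The remaining 27 libraries had 179 to 602 CPM. In just 1 of the 138 transcripts was animal 5 over 2-fold above all 29 other libraries. The 2069-base transcript had 6176 CPM in vehicle animal 2 of 10 h, 819 CPM in low dose animal 4 of 34 h and no more than 125 CPM in the other 27.

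**Figure D4:**
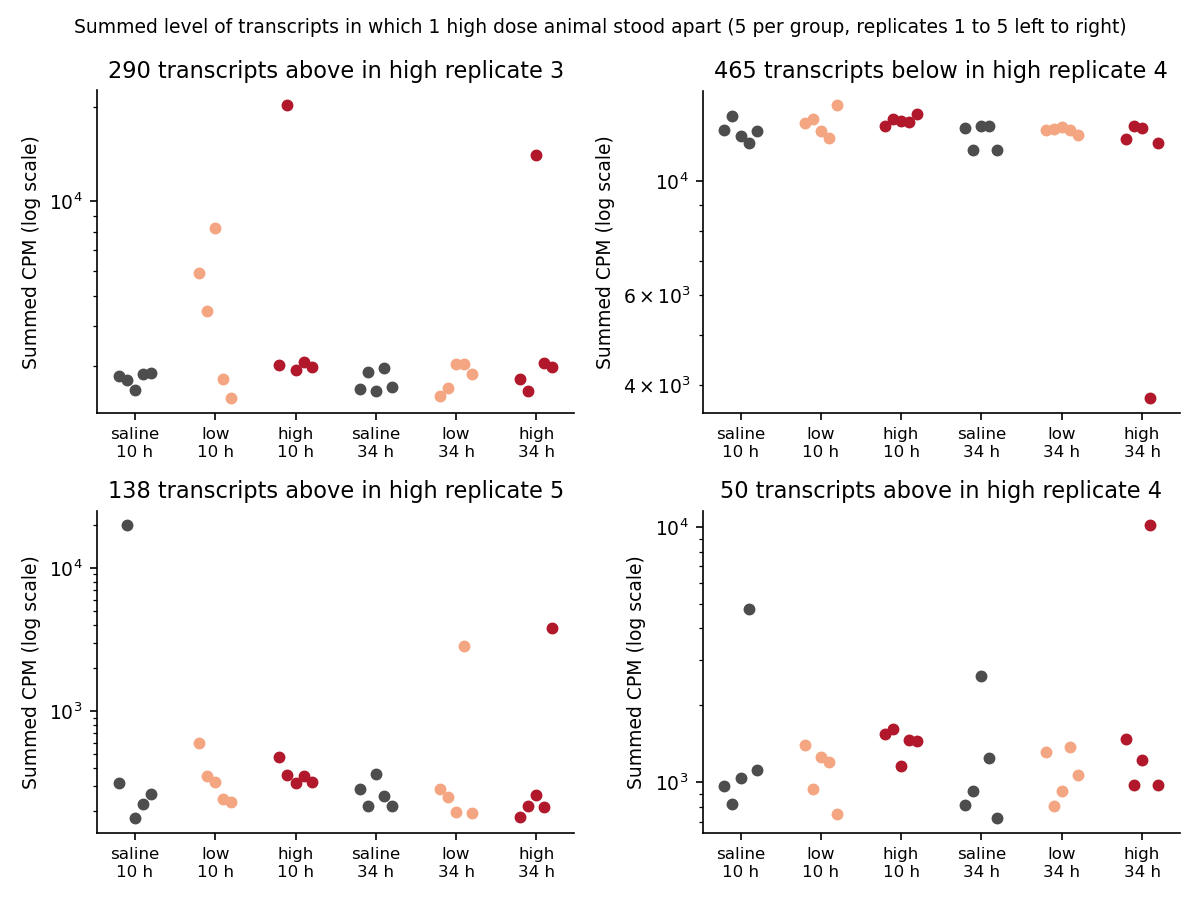
Summed level in CPM (log scale) of 4 sets of transcripts in all 30 kidneys, 5 per group, replicates 1 to 5 from left to right (grey saline, orange low dose, red high dose). The sum of the set above in high dose animal 3 is also high in 4 treated kidneys of 10 h, where few of its members were, the sum of the set below in animal 4 is low in no other kidney, the set above in animal 5 is highest in a saline kidney of 10 h (19896 CPM), and the set above in animal 4 is also raised in 2 saline kidneys.

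The transcripts that separated the groups at 34 h were followed into the kidneys of 10 h, which share no animal with this comparison. Of the 90 higher transcripts, 75 were also higher in the mean of the low dose at 10 h than in the vehicle of 10 h, against 49.0% of all transcripts of at least 5 CPM. Of the 88 lower transcripts, 72 were lower there (50.9% of all). The high dose of 10 h went the same way in 39 of the 90 and 22 of the 88 (52.8% and 47.2% of all). Both 10 h comparisons use the same vehicle libraries.

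Within those groups the animals differed again. The number of the 90 transcripts at least 2-fold above the vehicle of the same time was 13, 15, 15, 0 and 1 in low dose animals 1 to 5 of 10 h. Of all transcripts of at least 5 CPM, 0.783, 0.931, 1.06, 0.349 and 0.388% were as far above in these animals. The number was 21 in high dose animal 2 of 10 h (3.03% of all) and 0 to 4 in the other 4 animals of that group (0.388 to 0.644% of all). Counts of 0 and 1 among 90 are near such shares. At 34 h it was 7, 5, 12, 7 and 4 in high dose animals 1 to 5, by the rule that chose the list (0.349, 0.465, 2.09, 0.745 and 0.543% of all). In the low dose of 34 h, which is set against the same vehicle, it was 8 in animals 3 and 4 (0.419 and 0.566% of all) and 1 to 3 in the others (0.209 to 0.527%).

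**Figure D5:**
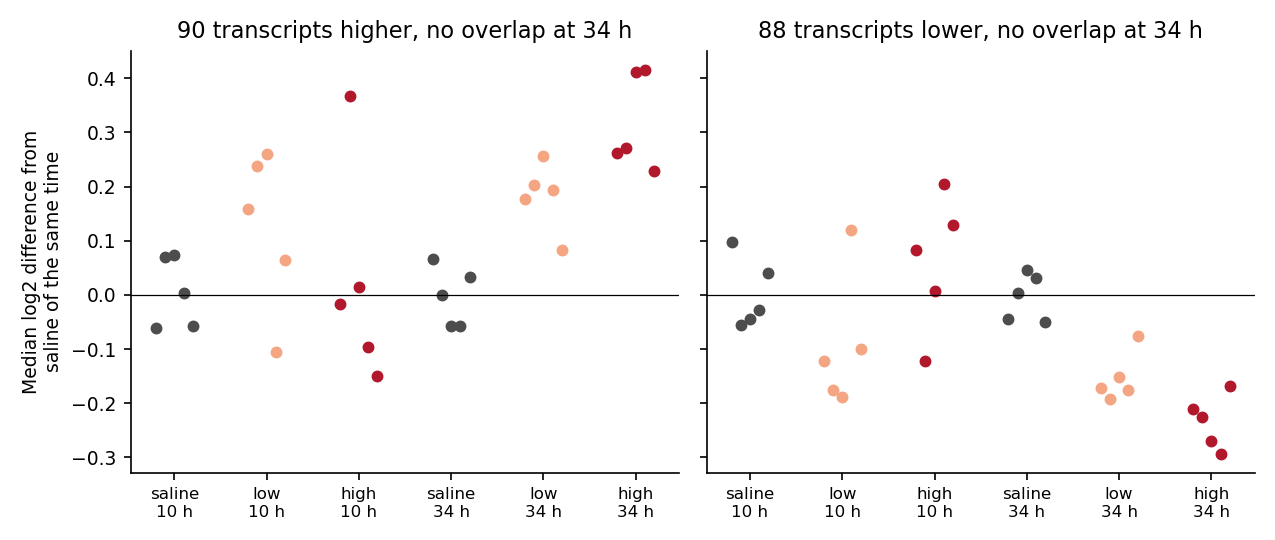
Median log2 difference of each kidney from the median saline kidney of the same time, over the 90 transcripts higher (left) and the 88 lower (right) in all high dose animals of 34 h, with 5 kidneys per group in the order of replicates 1 to 5. The high dose of 34 h lies outside saline by construction, and high dose animal 2 of 10 h lies above the other high dose animals of that time in the left panel.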

How the data were processed

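RNA of whole kidneys was made into poly-A libraries with a stranded kit and read as 75-base pairs, per the labels' protocols. The estimated counts were deposited by the authors, 1 file per library with 65166 targets (40071 transcripts and 25095 genomic intervals); kallisto 0.42.2 and the build Rnor_6.0 are named in the submitters' processing notes. The deposited TPM values are those estimated counts scaled to length and library, per the file headers, and were used in 1 alternative. The sources used here give neither the annotation release nor the options. Estimated counts need not be whole: 21848 transcripts were whole in all 30 libraries, within 1e-06.

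Counts of transcripts were rounded. Transcripts were kept by filterByExpr over all 30 libraries (21112), and the 10 libraries of the comparison were fitted with edgeR 4.0.16 (TMM, quasi-likelihood, robust, Benjamini-Hochberg adjustment, threshold 0.05). The SE is the size of the log2 fold change divided by the square root of F. Levels are CPM after TMM, with 0.5 added for log2 values and 2-fold counts. The spread was tested with limma 3.58.1. Values of the other 20 libraries were scaled over all 30, which moves a level by at most 1.70%. DESeq2 1.42.0 gave no adjusted p to 239 transcripts. Calculations used R 4.3.3, Python 3.11.15 and scipy 1.17.1, and the tests were tried on simulated data. Without molecular identifiers, counting error is a lower limit of the error.

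Groups follow the labels. The members and lists were chosen with earlier results of these data known. IDs were given, among transcripts of at least 5 CPM with whole counts, to the largest and smallest median difference without overlap and to the most distinct transcript of high dose animals 3 (above) and 4 (below). Others are the next in the same orders, or were chosen after their values were seen (the 1924-base, 348-base, 5531-base and 3851-base transcripts and the examples of animal 5). Genomic intervals were left out of library sizes and tests.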

Additional observations from a re-analysis of the deposited data

Results flagged for a closer look

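Within groups of 5 kidneys, 20 sets of values were examined for a single far sample, and 3 had one whose gap to the nearest other sample, as a share of the whole range, was above Dixon's critical value of 0.71. Chance gives about 1 in 20. The share of counts on genomic intervals was 9.23% in high dose animal 4 (gap share 0.791). This share is also a signal in targets that no comparison here uses, and it was above that of all 5 vehicle kidneys of 34 h. The level of ENSRNOT00000018776 was 44.7 CPM in high dose animal 3 (gap share 0.954), and that of ENSRNOT00000061139 was 20.5 CPM in high dose animal 4 (gap share 0.875). Both transcripts were chosen because these animals stood apart in them.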

How the results depend on the processing

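The count of 0 transcripts called became 41 with DESeq2, 1 without a filter on low counts, 3 with whole counts alone, and 0 to 1 with 1 library left out (1 without vehicle animal 1, 2 or 3 or high dose animal 5, a different transcript each time). It was 0 under the other 10 alternatives, among them both runs of library numbers alone, chosen after seeing the data. The 3 calls with whole counts became 0 to 3 with 1 library left out and 1 without high dose animals 3 and 4. The 16 transcripts called for spread became 0 with deviations from the median, 0 with squared deviations, 0 with whole counts alone, 0 without animals 3 and 4, 2 with a filter of 5 CPM, and 21 to 67 with 1 library left out. The 242 transcripts past 2-fold by the median became 42 with that filter, 15 with whole counts alone and 51 with a pseudocount of 2, and 237 to 297 with 1 library left out. The 256 without overlap became 109 with whole counts alone, 349 to 744 with 1 library left out and 890 without animals 3 and 4, as fewer libraries let more transcripts separate. The distance difference of 0.0763 was 0.0423 to 0.107 with 1 library left out. It reversed to -0.00295 without animals 3 and 4, which had the largest distances, and to -0.0191 in the run 41 to 45. The transcripts in which 1 kidney stood apart, at 4-fold and with whole counts alone, were 88 and 236 of 483 for animal 3, 70 and 152 of 515 for animal 4, and 94 and 57 of 149 for animal 5. The log2 fold change of ENSRNOT00000018776 was -0.07 to 1.61 with 1 library left out. It reversed to -0.07 without animal 3, -0.10 without animals 3 and 4 and -0.13 in the run 41 to 45. The causes of these moves were not tested beyond what the settings themselves remove. No paired analysis was possible because replicate numbers follow the order of deposit and pair no animals.

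Depth is least for transcripts under 5 CPM, which held 196 of the 242 median differences. No gene names were at hand, so pathways and cell types are not described.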
